A study of Mus musculus with 6 samples.

Results

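The transcripts examined here belong to the integrated stress response and the unfolded protein response. They were *Atf4*, *Ddit3*, *Trib3*, *Chac1*, *Atf3*, *Ppp1r15a*, *Xbp1*, *Ern1*, *Psat1* and *Phgdh*, 10 of the 20856 genes with values in the deposited table, and were taken by gene symbol. RNA was sequenced from 6 cell lines grown out of liver tumors of C57BL/6 mice. Each tumor had been started by hydrodynamic transfection of the liver with a *Myc* transposon and a pX330 plasmid, which carries Cas9 and a guide RNA for transient expression. The guide was directed at *Trp53* in 3 lines (*Myc*; sg*Trp53*, replicates T1, T2 and T3) and at *Kmt2c*, which encodes the histone methyltransferase MLL3, in the other 3 (*Myc*; sg*Kmt2c*, replicates K1, K2 and K3). The lines received no further treatment and had been passaged in culture until fibroblasts were no longer visible. They are not isogenic, all carry the *Myc* transposon, and no line with both targeted genes intact was compared, so each difference is between the genotypes and not from an unedited state. The study states that the 3 lines of a genotype came from separate mice and served as biological replicates. In the deposited labels, however, K2 and K3 carry the same number with different endings, and K1 carries another. The labels do not say what that number stands for, so a fit with K2 and K3 averaged is also given.

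Both responses begin with a sensor of stress. In the integrated stress response, kinases phosphorylate the translation factor eIF2α, which lowers protein synthesis while the mRNA of the transcription factor ATF4 is translated more, so the level of *Atf4* mRNA does not report the level of ATF4 protein. ATF4 induces genes of amino acid supply and further transcription factors. In the unfolded protein response, misfolded protein in the endoplasmic reticulum (ER) activates the eIF2α kinase PERK, the nuclease IRE1α and the transcription factor ATF6, and IRE1α removes an intron from *Xbp1* mRNA so that an active factor is made.

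Reads counted on genes came to between 5312182 and 6878625 per sg*Trp53* library and between 3680068 and 4704539 per sg*Kmt2c* library. Values are RPKM, which scale the reads of a gene to 1 listed transcript length, in kilobases, and to the counted reads of the library. *Trp53* was at 17.2, 17.6 and 19.4 RPKM in T1 to T3 and at 92.2, 124 and 121 RPKM in K1 to K3, a higher level in the sg*Kmt2c* lines that passed the test (log2 fold change 2.56, adjusted p = 0.0140, limma). The adjusted p-value was 0.127 with K2 and K3 averaged, 0.0117 without K1 and 0.0812 to 0.145 without any other single line (limma), so the call rests on which lines are used, while the log2 fold change in those fits was 2.48 to 2.69. *Cdkn1a*, a p53 target that arrests the cell cycle, was at 7.54 to 36.1 RPKM in T1 to T3 and at 217 to 295 RPKM in K1 to K3 (adjusted p = 0.0680, limma). *Kmt2c* overlapped between the genotypes (18.4 to 24.2 against 9.51 to 25.0 RPKM), and an RNA level is no check of an edit in the DNA. *Alb*, the defining secreted protein of hepatocytes, was at 0.644 to 4.36 RPKM over the 6 lines, so that marker of the tissue of origin was close to absent.

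For none of the 10 genes did the difference between the genotypes pass the test against the spread among lines. The test was limma on log2(RPKM + 1) and covered 11617 genes, those that reached 1 RPKM in 3 or more libraries, and all 10 were among them. At an adjusted p-value under 0.05, 0 of the 10 passed with a higher level in sg*Kmt2c*, against 0.0516% of all genes tested, and 0 with a lower level, against 0.0775%. At an unadjusted p-value under 0.05 the count was also 0 of 10, against 8.58% of all genes. A second test, limma voom on reads recovered from the RPKM values, passed 0 at either threshold. The levels of the genotypes overlapped for each of the 10 genes, whereas they were separate for 16.2% of all genes. The mean was higher in the sg*Kmt2c* lines for 7 of the 10, against 42% of all genes tested. The median log2 fold change of the 10 was 0.48, beside -0.09 for all genes tested. Exact two-sided permutation tests of single genes gave p-values of 0.3 to 0.9, and with 3 lines against 3 the smallest p-value possible is 0.1.

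*Atf4* (chr15:80255184-80257540 in GRCm38), the transcription factor at the centre of the integrated stress response, was abundant in every line. Its level was 165, 104 and 190.4 RPKM in T1, T2 and T3 and 474, 78.5 and 189.7 RPKM in K1, K2 and K3. K1 was highest and K2 lowest, so both ends of the range lay within 1 genotype, and the 4 other lines fell between them. The levels of T3 and K3 could not be separated by counting error. The log2 fold change of sg*Kmt2c* over sg*Trp53* was 0.37 (95% interval -1.13 to 1.88, adjusted p = 0.860, limma). The interval held a 2-fold difference in either direction, as it did for *Trib3*, *Chac1* and *Atf3*. 

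*Ddit3* (chr10:127290774-127296288), which encodes CHOP, a transcription factor tied to cell death under lasting stress, had the narrowest range outside K1. It was at 10.3, 12.0 and 12.4 RPKM in T1, T2 and T3 and at 60.8, 11.3 and 9.46 RPKM in K1, K2 and K3. K1 stood apart, and none of the neighbours in the order of the other 5 lines could be separated by counting error. The highest of those 5 was 1.31 times the lowest. On the log2 scale sg*Kmt2c* minus sg*Trp53* was 0.67 (95% interval -0.91 to 2.25, adjusted p = 0.769, limma). In RefSeq the ends of *Ddit3* overlap *Mbd6* by 77 bases and *Mars1* by 71 bases, and the library kit does not mark strand. *Mbd6* was at 91.9 to 114 RPKM and *Mars1*, listed as *Mars*, at 39.7 to 68.7 RPKM over the 6 lines, without the step seen for *Ddit3* in K1.

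*Trib3* (chr2:152337422-152344032), a pseudokinase induced by ATF4 and CHOP, varied most of the 10 genes. It was at 41.3, 22.7 and 41.2 RPKM in T1, T2 and T3, and at 617, 8.61 and 69.6 RPKM in K1, K2 and K3. The sg*Kmt2c* lines thus held the highest level, the next highest and the lowest of all 6. Those values rest on 1466, 16 and 150 reads. The standard deviation of log2(RPKM + 1) was 3.00 over the sg*Kmt2c* lines and 0.48 over the sg*Trp53* lines. The log2 fold change of 1.10 was the highest of the 10 and the least certain (95% interval -2.17 to 4.38, adjusted p = 0.807, limma).

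*Chac1* (chr2:119351229-119354381) encodes an enzyme that degrades glutathione and is a target of ATF4. It was at 6.61, 3.44 and 9.93 RPKM in T1, T2 and T3 and at 47.6, 2.98 and 10.6 RPKM in K1, K2 and K3. The order of the 6 lines was the same as for *Trib3* except that T1 and T3 changed places, with K1 and K3 on top and T2 and K2 at the bottom. The levels of T2 and K2 could not be separated by counting error, at 30 and 18 reads. This gave a log2 fold change of 0.87 (95% interval -1.25 to 2.98, adjusted p = 0.771, limma).

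*Atf3* (chr1:191170296-191218039), a stress-induced transcription factor that ATF4 can activate, did not share the step in K1. It was at 24.2, 7.01 and 13.2 RPKM in T1, T2 and T3 and at 19.3, 5.74 and 13.9 RPKM in K1, K2 and K3. T1 was the highest line, K1 came next, and T2 and K2 were again the lowest. The difference was the smallest of the 10, with a log2 fold change of -0.17 (95% interval -1.49 to 1.16, adjusted p = 0.933, limma).

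*Ppp1r15a* (chr7:45522916-45526268) encodes GADD34, the phosphatase subunit that removes phosphate from eIF2α and so ends the response. Its level was 54.8, 34.8 and 45.1 RPKM in T1, T2 and T3 and 214, 49.5 and 50.5 RPKM in K1, K2 and K3. Only K1 stood apart from the other lines, whose range was 1.58-fold. The log2 fold change was 0.87 (95% interval -0.51 to 2.25), and its adjusted p-value of 0.703 was the lowest of the 10 (limma). *Tulp2*, which overlaps *Ppp1r15a* by 730 bases in RefSeq, was at 0 RPKM in 5 lines and at 0.0762 RPKM in T1.

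Levels of *Trib3* and *Ppp1r15a* per length need care when set beside other genes. The deposited table divides their reads by 504 and 389 bases, while the longest coding transcript in GENCODE M1 has 2026 bases for *Trib3* and 2809 bases for *Ppp1r15a*. For the other 8 genes the listed length equals that of the longest coding transcript. Per longest transcript, *Trib3* in K1 comes to 154 RPKM, below *Atf4* at 474 RPKM and above *Ddit3* at 60.8 RPKM. *Ppp1r15a* in K1 comes to 29.7 RPKM and ranges from 4.82 to 7.59 RPKM in the other 5 lines. The choice of length does not touch RPKM ratios of 1 gene between lines. Fold changes and standard deviations on log2(RPKM + 1) can shift with it, because 1 is added to each value.

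**Figure D1:**
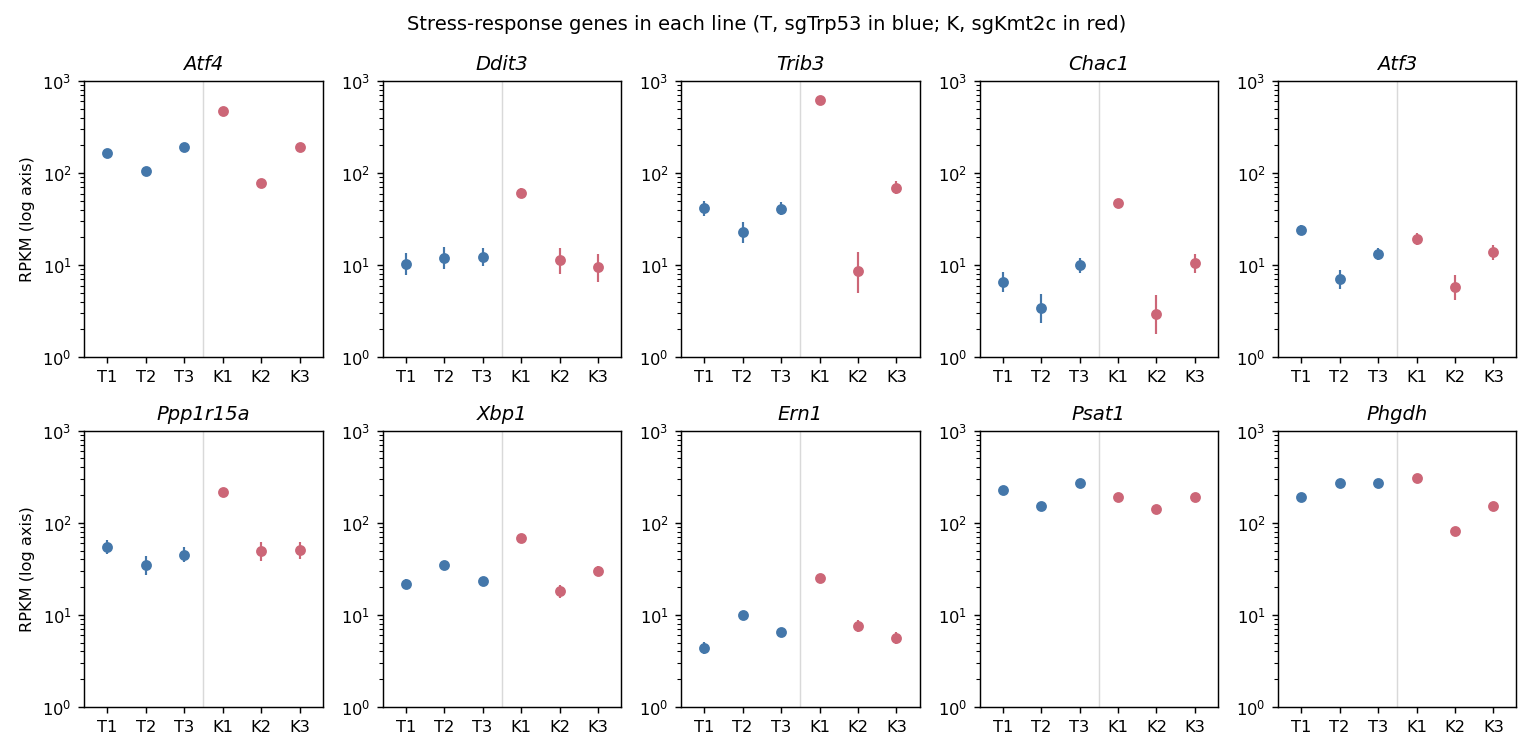
RPKM of the 10 genes on a log axis in the sg*Trp53* lines (T1 to T3, blue) and the sg*Kmt2c* lines (K1 to K3, red). Each point is 1 library and each bar its exact 95% Poisson interval for counting error, smaller than the point where not visible. K1 is the highest point for 8 genes, and for *Trib3* it lies at 617 RPKM against 8.61 to 69.6 RPKM in the other lines.

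The promoters of these genes were searched for the elements through which the pathways are known to act, since several of the genes moved together over the lines. RefSeq sequence of GRCm38.p6 from 250 bases before to 50 after each start site was matched for all 10 genes. The element bound by ATF4 with C/EBP proteins, TGATGNAA or TTNCATCA on the other strand, was found in 3 of them, *Chac1*, *Atf3* and *Trib3*, and in 3.97% of all 32851 promoters. The match lay at bases -193 to -186 from the start site in *Chac1*, at -110 to -103 in *Atf3* and at 15 to 22 in *Trib3*, counted with the start as base 1. The cyclic AMP response element TGACGTCA, added after the other searches, was found in *Ppp1r15a* at bases -12 to -5 and in 1.79% of all promoters. The sequences below show these matches in capitals, 5′ to 3′ on the strand of the gene.
Chac1, chr2:119350993-119351112, plus strand: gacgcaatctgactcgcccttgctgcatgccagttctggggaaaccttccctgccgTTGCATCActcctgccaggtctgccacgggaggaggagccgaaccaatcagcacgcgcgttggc
Atf3, chr1:191183380-191183499, minus strand: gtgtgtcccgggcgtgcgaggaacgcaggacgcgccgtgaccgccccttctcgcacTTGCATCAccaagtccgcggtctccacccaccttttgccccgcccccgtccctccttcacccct
Trib3, chr2:152344028-152344057, minus strand: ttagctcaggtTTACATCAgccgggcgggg
Ppp1r15a, chr7:45526269-45526388, minus strand: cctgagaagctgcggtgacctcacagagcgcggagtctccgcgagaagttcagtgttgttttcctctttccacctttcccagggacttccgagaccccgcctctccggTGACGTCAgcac

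The UPR element TGACGTGG or CCACGTCA was in 0.676% of all promoters, and the ER stress element, CCAAT followed by 9 bases and CCACG on either strand, in 0.119%. Neither was found in these windows of the 10 genes. Searches were made on both strands. The CCACG of the ER stress element is also the start of CCACGTCA, so those searches can overlap, while the other elements cannot match the same 8 bases. The match in *Atf3* has the same letters as that in *Chac1*, TTGCATCA, while the levels of these genes differed in K1, where *Chac1* was at 4.50 times and *Atf3* at 0.795 times the highest of the other lines.

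*Psat1* and *Phgdh*, enzymes of serine synthesis from a glycolytic intermediate that ATF4 is known to induce, did not share the large step in K1. *Phgdh* (chr3:98313170-98339990) catalyses the first step and was at 192, 269.8 and 269 RPKM in T1, T2 and T3. In K1, K2 and K3 it was at 308, 80.5 and 154 RPKM. K1 was highest by a small margin, while K3 and K2 were the 2 lowest of the 6 lines. The difference of the means was a log2 fold change of -0.62 (95% interval -1.75 to 0.51, adjusted p = 0.720, limma). A processed copy of the gene, *Phgdh-ps1*, is annotated, and reads that the authors' counting may have split between them make the level uncertain.

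*Psat1* (chr19:15904678-15947337), the transaminase of the next step, was the most even of the 10 genes over the sg*Kmt2c* lines. It was at 229.7, 152 and 267 RPKM in T1, T2 and T3 and at 192, 141 and 191 RPKM in K1, K2 and K3. T3 was highest and K2 lowest, and K1 and K3 could not be separated by counting error. The log2 fold change was -0.28 (95% interval -0.92 to 0.35, adjusted p = 0.758, limma), so a 2-fold difference in either direction lies outside the interval for this gene.

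*Ern1* (chr11:106394650-106487852) encodes IRE1α and was at 4.37, 10.0 and 6.44 RPKM in T1, T2 and T3. In K1, K2 and K3 it was at 25.2, 7.62 and 5.62 RPKM. K1 was again apart from the other lines, but T2 came next, whereas T2 was among the low lines for *Atf4*, *Trib3* and *Chac1*. This came to a log2 fold change of 0.59 (95% interval -0.75 to 1.93, adjusted p = 0.762, limma).

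*Xbp1* (chr11:5520659-5525893), the substrate of IRE1α, was at 21.9, 35.2 and 23.0 RPKM in T1, T2 and T3. It was at 67.7, 18.1 and 29.8 RPKM in K1, K2 and K3. K1 was highest and T2 next, as for *Ern1*, and K2 was lowest. Between the genotypes the log2 fold change was 0.34 (95% interval -0.80 to 1.48, adjusted p = 0.828, limma). A value per gene does not tell spliced from unspliced *Xbp1* mRNA, so the activity of IRE1α was not measured.

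Over the 10 genes the lines differed more than the genotypes did. This pattern was noticed in the values and is given as a description without a test. K1 was the highest of the 6 lines for 8 of the 10 genes, all but *Atf3* and *Psat1*, against 23.6% of all genes tested. It was the lowest line for 0 of the 10. Over all genes K1 was often at an end of the range. It was lowest for 35.9% of all genes, against 8.37% to 17.8% for each other line. It was at 2 or more times the next line for 6 of the 10, against 5.14% of all genes. The ratio of K1 to the highest of the other 5 lines was 8.87 for *Trib3* (exact 95% interval for counting error 7.49 to 10.6), 4.91 for *Ddit3* (3.78 to 6.42) and 4.50 for *Chac1* (3.50 to 5.86). It was 3.91 for *Ppp1r15a* (3.20 to 4.81), 2.51 for *Ern1* (2.22 to 2.85) and 2.49 for *Atf4* (2.36 to 2.63). *Xbp1* followed at 1.92 (1.70 to 2.18) and *Phgdh* at 1.14 (1.08 to 1.21). The intervals cover counting error only, and each line is 1 library. With TPM and quantile scaling the count at 2 or more times was also 6, and with median-of-ratios scaling it was 7, with *Xbp1* added at 2.08.

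K2 lay at the other end, as the lowest line for 7 of the 10 genes, against 17.8% of all genes. T2 and K2 together were the 2 lowest lines for 5 of the 10, *Atf4*, *Trib3*, *Chac1*, *Atf3* and *Psat1*, against 9.41% of all genes. For *Trib3* the level was 22.7 RPKM in T2 and 8.61 RPKM in K2, and the other 4 lines were at 41.2 RPKM or more. T2 was not low for *Xbp1*, *Ern1* or *Phgdh*, for which it was the next line after K1.

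The standard deviation of log2(RPKM + 1) was larger over the sg*Kmt2c* than over the sg*Trp53* lines for 8 of the 10 genes, against 70.7% of all genes. It was 1.42 against 0.13 for *Ddit3* and 1.29 against 0.45 for *Atf4*. *Psat1*, at 0.25 against 0.42, was among the 2 exceptions, and *Atf3*, at 0.82 against 0.83, was the other.

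For 6 of the 10 genes the direction of the mean difference rested on K1. Without that line, 1 of the 10 genes had a higher mean in the sg*Kmt2c* lines, against 45.6% of the 11402 genes then tested, and the median log2 fold change of the 10 was -0.22 in place of 0.48. The log2 fold change of *Trib3* became -0.42 (95% interval -2.42 to 1.58) and that of *Atf4* -0.28 (95% interval -1.35 to 0.79). For *Ddit3* it became -0.15 (95% interval -0.68 to 0.39). K1 was the extreme line of *Ddit3*, so leaving it out narrows that interval, which was -0.91 to 2.25 with all 6 lines. *Ppp1r15a* kept a positive value of 0.18 (95% interval -0.39 to 0.74). *Phgdh* moved to -1.11 (95% interval -1.90 to -0.32) and was then the only 1 of the 10 without overlap, against 26.7% of all genes, and the only 1 with an unadjusted p-value under 0.05, against 9.22%. Its adjusted p-value was 0.416 (limma), so that difference did not pass the test.

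**Figure D2:**
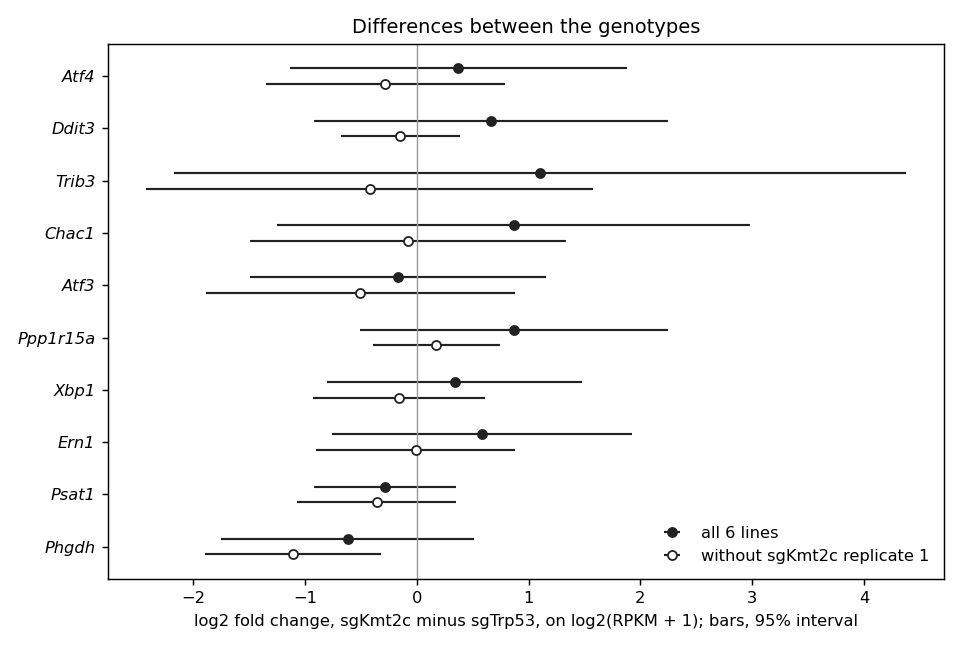
Log2 fold change of each gene, sg*Kmt2c* minus sg*Trp53*, on log2(RPKM + 1), from limma with all 6 lines (filled points) and without K1 (open points). Bars are 95% intervals. All intervals with 6 lines include 0, and 6 genes change sign when K1 is left out, among them *Trib3*, from 1.10 to -0.42.

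Other genes of the pathways were taken from lists, and 0 of the 161 genes tested in 9 lists passed an adjusted p-value of 0.05 (limma, and 0 with voom). At an unadjusted p-value under 0.05 there were 23 of them, 13 higher and 10 lower in the sg*Kmt2c* lines, against 8.58% of all genes tested. Among 24 genes placed downstream of ATF4, 23 were tested, with a median log2 fold change of 0.15. That median became -0.18 without K1, -0.08 without T2 and 0.63 without K2. K1 was the highest line for 18 of these 23 (78.3%) and was at 2 or more times the next line for 6. *Slc7a11*, which imports cystine for glutathione synthesis, was at 4.50 to 8.07 RPKM in T1 to T3 and at 167, 1.68 and 13.5 RPKM in K1, K2 and K3 (log2 fold change 1.37, adjusted p = 0.769, limma). In that line *Slc7a11* thus stood apart together with *Chac1*, whose product degrades glutathione. *Gdf15*, a secreted stress cytokine, was at 28.8, 0.136 and 24.6 RPKM in T1, T2 and T3 and at 73.8, 45.0 and 48.8 RPKM in K1, K2 and K3 (log2 fold change 2.54, adjusted p = 0.609, limma). The T2 value of *Gdf15* is 1 read and weighs heavily in that fold change. The standard deviation of log2(RPKM + 1) over the sg*Trp53* lines was 2.66. Levels did not overlap for 3 of the 23 genes, *Sesn2* (log2 fold change 1.34), *Ddit4* (1.36) and *Gdf15*. That share is under the 16.2% of all genes, so it does not set the list apart. The genotypes also differ in the *Trp53* edit, so its part and that of ATF4 in the levels of this list cannot be told apart. *Sesn2* had the lowest adjusted p-value of the list, 0.294 (limma). The lowest values were those of *Stc2* (-1.05) and *Adm2* (-0.92).

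**Figure D3:**
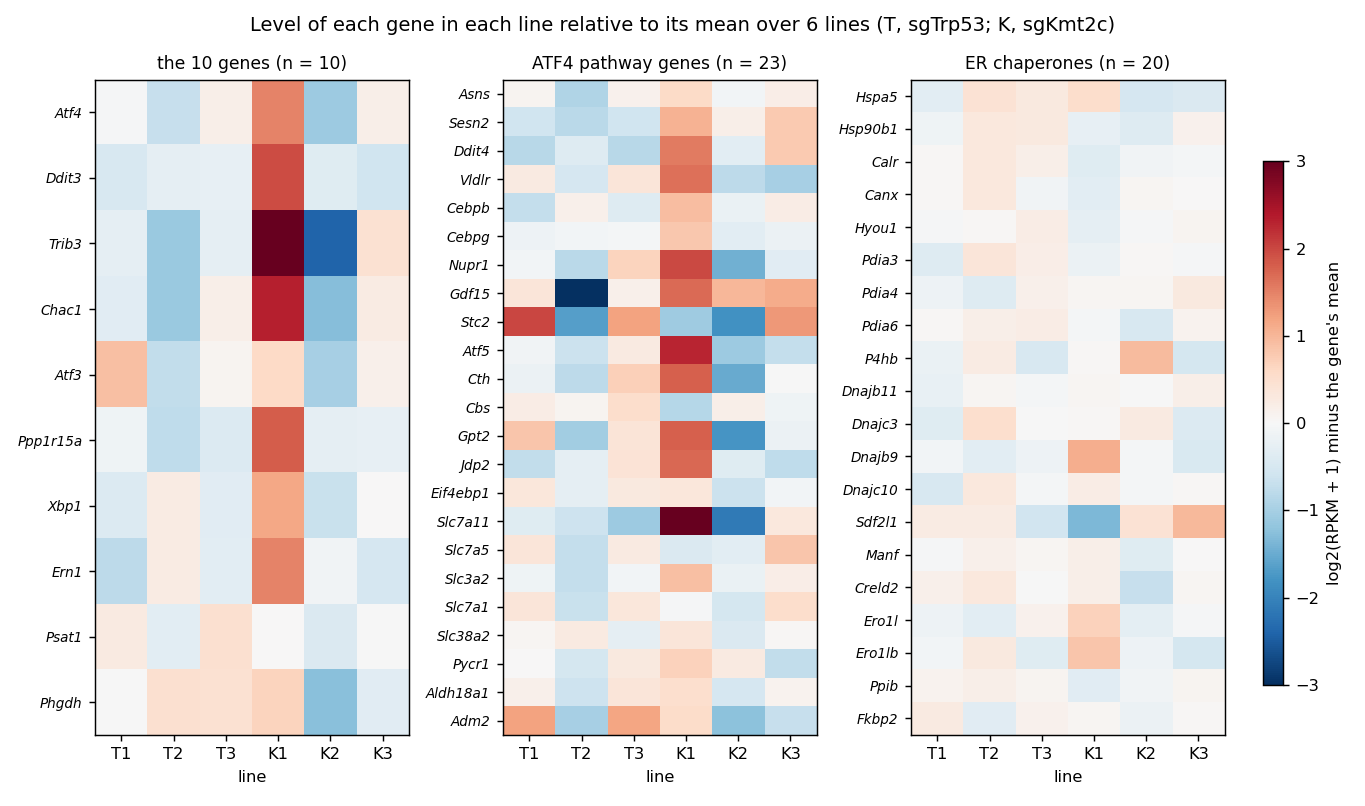
Log2(RPKM + 1) of each gene in each line minus the mean of that gene over the 6 lines, for the 10 genes, the 23 tested genes of the ATF4 list and 20 ER chaperones and folding enzymes. Red is above and blue below the mean, and the colour scale ends at 3 in either direction. K1 is the reddest column for most of the 10 genes and of the ATF4 list, where it is highest for 8 of 10 and 18 of 23, and not for the chaperones, where it is highest for 5 of 20.

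The kinases and factors upstream of ATF4 showed no such upward step in K1. K1 was highest for 1 of 15 genes of eIF2 and its regulators, and at 2 or more times the next line for 0, with a median log2 fold change of -0.13. K1 was lowest for 5 of the 15, against 35.9% of all genes tested. The extremes were *Eif2b2* (0.45) and *Eif2b5* (0.35), subunits of the exchange factor of eIF2, and *Impact* (-0.58) and *Gcn1l1* (-0.41), regulators of the kinase GCN2. The value of *Impact* rested on K1, where it was at 8.53 RPKM against 23.5 to 40.2 RPKM in the other lines. Without K1 its log2 fold change was -0.00019. *Eif2ak3*, which encodes PERK, was at 5.04 to 14.4 RPKM in T1 to T3 and at 7.21 to 9.07 RPKM in K1 to K3. Of 20 cytosolic aminoacyl-tRNA synthetases, many of them ATF4 targets, K1 was highest for 7, and the extremes were *Cars* (0.37), *Wars* (0.28), *Lars* (-0.52) and *Kars* (-0.61).

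The serine, glycine and one-carbon enzymes beside *Psat1* and *Phgdh* had a median log2 fold change of -0.26, and K1 was highest for 2 of 17. K1 was at 2 or more times the next line for 2 of the 17, against 5.14% of all genes. Levels did not overlap for 4 of the 17, all lower in the sg*Kmt2c* lines, against 16.2% of all genes in either direction, and none passed the test. *Aldh1l2*, the mitochondrial formyltetrahydrofolate dehydrogenase, was at 14.8, 8.08 and 13.1 RPKM in T1, T2 and T3 and at 1.16, 1.85 and 3.07 RPKM in K1, K2 and K3 (log2 fold change -2.11, adjusted p = 0.148, limma). *Gldc*, of the glycine cleavage system, was at 5.28 to 31.0 RPKM against 0.939 to 4.64 RPKM (log2 fold change -2.59, adjusted p = 0.422, limma). The highest values were those of the amino acid transporters *Slc1a5* (0.74) and *Slc1a4* (0.41).

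The chaperone arm of the unfolded protein response did not share the step in K1. Among 20 ER chaperones and folding enzymes K1 was highest for 5 and lowest for 5, and the median log2 fold change was -0.09. *Hspa5*, which encodes BiP, the chaperone that holds the stress sensors inactive, was at 147, 249 and 225 RPKM in T1, T2 and T3 and at 266, 129 and 136 RPKM in K1, K2 and K3 (log2 fold change -0.27, adjusted p = 0.811, limma). *Dnajb9*, a co-chaperone and known XBP1 target, was the 1 gene of the list at 2 or more times the next line in K1, at 20.4 RPKM against 6.27 to 8.58 RPKM. Its log2 fold change of 0.37 and that of *P4hb* (0.30) were the highest of the list, and those of *Calr* (-0.35) and *Hsp90b1* (-0.33) the lowest. Of 13 genes of the sensors and their processing 10 were tested, with *Mbtps2* (0.85) and *Bcap31* (0.43) highest and *Creb3* (-0.63) and *Traf2* (-0.48) lowest. K1 was highest for 4 of the 10, lowest for 3 and at 2 or more times the next line for 1. Of 28 genes of ER-associated degradation and secretion 27 were tested, with *Os9* (0.83) and *Ssr4* (0.79) highest and *Sec24d* (-0.79) and *Ssr2* (-0.74) lowest. K1 was highest for 7 of the 27, lowest for 4 and at 2 or more times the next line for 1. Over all genes tested K1 was highest for 23.6% and at 2 or more times the next line for 5.14%.

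*Atf3* and *Ddit3* also answer to signals outside the ER, and immediate early genes and a list of genes placed downstream of CHOP were read beside them. Of 24 immediate early genes 21 were tested. K1 was highest for 9 and at 2 or more times the next line for 3, against 5.14% of all genes. The extremes of the log2 fold change were *Btg2* (1.53), *Klf4* (1.28), *Egr1* (-0.71) and *Gadd45b* (-0.74). *Btg2*, an antiproliferative gene, was at 12.8 to 14.0 RPKM in T1 to T3 and at 37.3 to 43.9 RPKM in K1 to K3, just short of the threshold (adjusted p = 0.0503, limma). Of 8 genes placed downstream of CHOP, *Bax* (1.64, adjusted p = 0.0953, limma) and *Tnfrsf10b* (1.40) had the highest values and *Bcl2l11* (-1.20) and *Bcl2* (-0.13) the lowest. The list is mixed, as *Bcl2* opposes cell death and *Trib1* and *Trib2* encode pseudokinases. *Bax*, which permeabilizes the mitochondrial membrane, was at 68.9, 44.6 and 65.1 RPKM in T1, T2 and T3 and at 170.5, 167 and 222 RPKM in K1, K2 and K3. For the 8 genes of that mixed list the median log2 fold change was 0.42, and 0.55 without K1. K1 was highest for 3 of them, against 23.6% of all genes, and at 2 or more times the next line for 0. The genotypes also differ in the *Trp53* edit. The parts of that edit and of stress signals in the levels of these genes and of *Btg2* cannot be told apart.

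**Figure D4:**
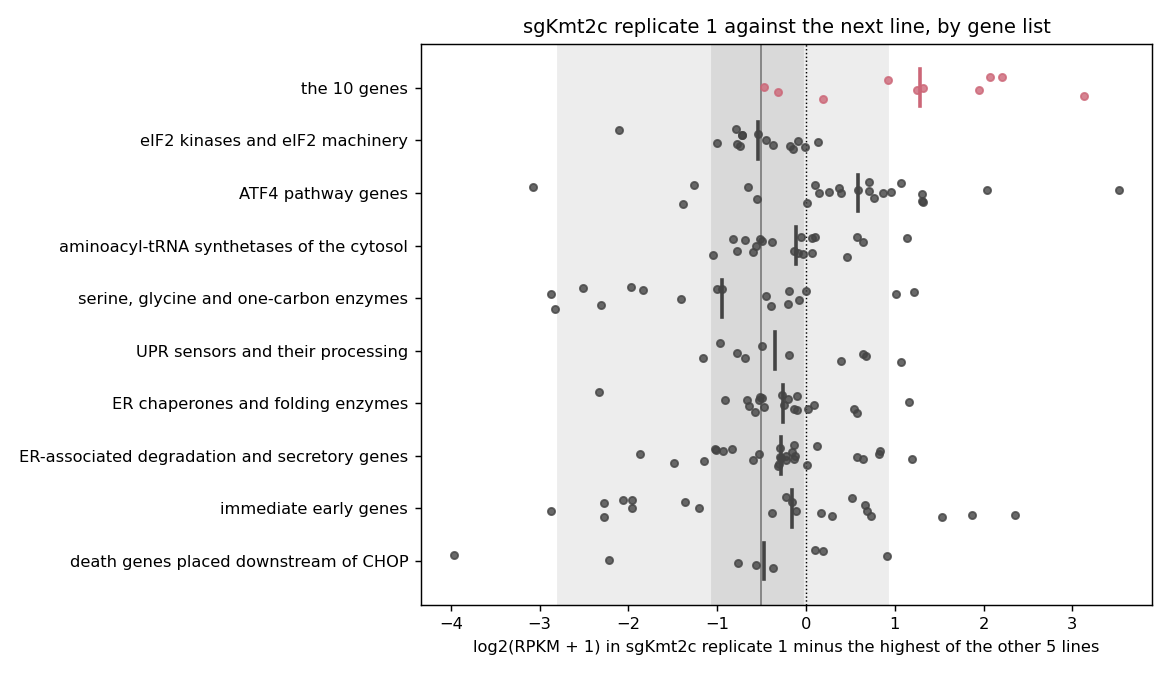
Log2(RPKM + 1) in K1 minus the highest of the other 5 lines, for each tested gene (points) of the 10 genes (red) and of 9 lists (grey), with the median of each as a vertical bar. The bands span the 5th to 95th and the 25th to 75th percentiles of all 11617 genes, the solid line is their median of -0.51, and the dotted line marks equal levels. *Trib3* lies at 3.13 and *Ddit3* at 2.21, beyond the band that ends at 0.93.

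Other properties of K1 moved with these genes. Of 10 epithelial and progenitor markers 9 were tested, and K1 was at 2 or more times the next line for 7, with a summed level of 7407 RPKM against 116 to 1697 RPKM in the other 5 lines. The same line had the highest summed level of 10 hepatocyte markers, 1304 RPKM against 4.59 to 211 RPKM, of which *Hnf4a* gave 1186 RPKM. Of these 10 hepatocyte markers 5 were tested. K1 was at 2 or more times the next line for 3 of the 5 and lowest for 1. T2 and K2, the low lines for *Atf4* and *Trib3*, had the 2 lowest sums of both lists, at 116 and 322 RPKM for the epithelial and 20.1 and 4.59 RPKM for the hepatocyte markers. The 10 fibroblast markers summed to 0.282 RPKM in K1 and to 18.6 to 1103 RPKM in the other lines, of which T2 was highest, and 8 of them, *Col1a2*, *Pdgfrb* and *Dcn* included, were at 0 in K1. Immune markers summed to 50.1, 23.7 and 62.7 RPKM in T1, T2 and T3 and to 6.60, 5.91 and 15.4 RPKM in K1, K2 and K3. Of the 3 immune markers tested, *Lyz2* and *Csf1r* did not overlap and were lower in the sg*Kmt2c* lines (adjusted p = 0.427 and 0.440, limma), and the T cell marker *Cd3e* was at 0 in all 6. Of the endothelial markers 9 of 10 were under 1 RPKM in every line, and *Egfl7* gave 17.0 to 53.2 RPKM. K1 was the lowest line for 19 of 20 proliferation genes, against 35.9% of all genes tested. These genes were chosen after their values were seen, and their sum was 604 RPKM in K1 and 1532 to 2035 RPKM elsewhere. The part of these differences in the levels of the 10 genes was not tested. In a bulk culture, more RNA per cell and more cells with a high level cannot be told apart.

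**Figure D5:**
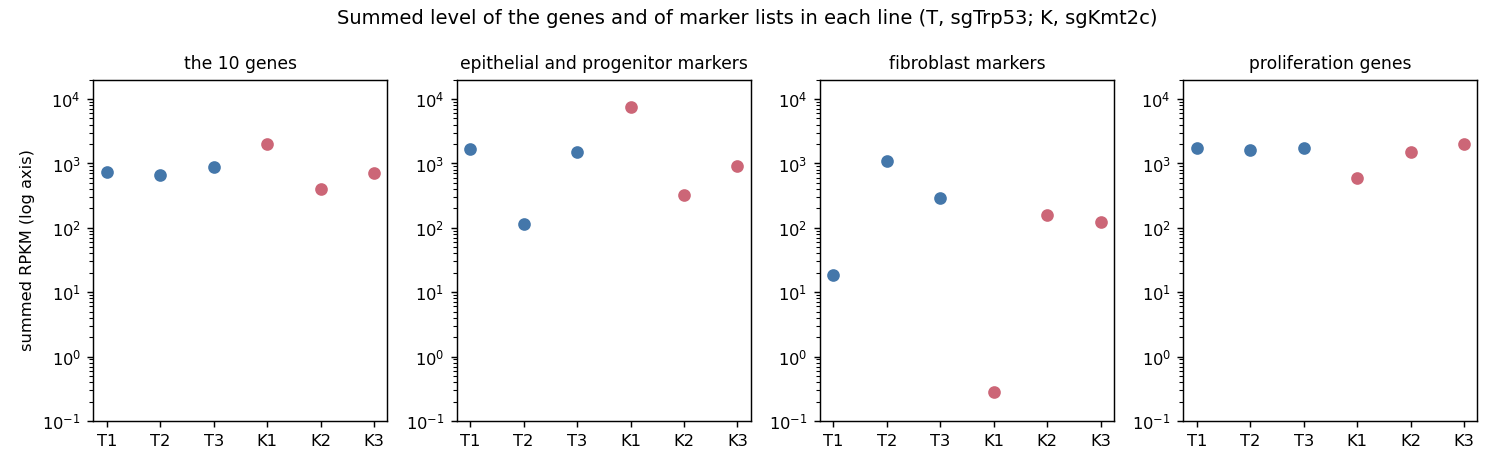
Summed RPKM on a log axis of the 10 genes, 10 epithelial and progenitor markers, 10 fibroblast markers and 20 proliferation genes in each line (T, sg*Trp53*, blue; K, sg*Kmt2c*, red). K1 is highest for the 10 genes (2027 RPKM against 404 to 878) and for the epithelial markers, and lowest for the fibroblast markers and the proliferation genes. The sum of the 10 genes uses listed lengths, which raise the weight of *Trib3* and *Ppp1r15a*. In K1 these gave 617 and 214 RPKM to it, against 154 and 29.7 RPKM per longest transcript.

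Likeness to *Atf4* and *Xbp1* was measured over all 11617 genes as the distance between profiles of log2(RPKM + 1) over the 6 lines, each centred on its mean. The nearest to *Atf4* were *Plekhh1* at 0.353, *Sipa1l3* at 0.362 and *Tmem141* at 0.472. *Sipa1l3* was at 45.6 RPKM in K1, at 9.04 RPKM in K2 and at 10.4 to 23.7 RPKM in the other lines. The nearest to *Xbp1* were *Stard3* at 0.379, *Dlg5* at 0.435 and *Cdr2l* at 0.444. None of these 6 genes is on the lists above.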

How the data were processed

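RNA-seq of 6 mouse liver tumor lines was analysed, 3 *Myc*; sg*Trp53* and 3 *Myc*; sg*Kmt2c*, grouped by the sample labels. Per the labels and the study's methods, the authors trimmed reads with Trimmomatic, aligned them to GRCm38 with STAR and counted them per gene with HTSeq. The authors deposited RPKM values, which divide by 1 listed transcript length per gene and by the reads counted on genes. The table has 21065 rows, 209 without values, and 6 columns of other samples that were not used. The deposited table of the authors' own comparison (mean normalized count, log2 fold change, its error, a statistic and p-values) was not used. The sample sheets place all libraries on the same flow cell and lanes. RPKM times length gave whole reads for 100% of values within 0.01 of a read, and 1 read at 2 kb was worth 0.0726 to 0.136 RPKM, which limits what low genes can show.

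Differences were tested with limma 3.58.1 (R 4.3.3, lmFit and eBayes with trend) on log2(RPKM + 1), a scale that understates fold changes of low genes. Genotype was the sole term, and p-values were adjusted by Benjamini-Hochberg over the 11617 genes that reached 1 RPKM in 3 or more libraries. The test was also run on simulated reads with known changes and a set spread. That spread was not fitted to these lines, so the run does not give the power of the test here. Ratios between libraries carry exact binomial intervals at 95%, from reads. The 10 genes, the gene lists and the tests were chosen with earlier results of these data known. The text names these 10 genes, *Trp53*, *Kmt2c*, *Cdkn1a*, of each list the 2 highest and 2 lowest log2 fold changes, and the 3 nearest profiles of *Atf4* and *Xbp1*. *Alb*, *Hnf4a*, *Hspa5*, *Eif2ak3*, *Dnajb9*, *Sesn2*, *Ddit4*, the fibroblast, immune and endothelial markers and genes overlapping the 10 were added after their values were seen. Alternatives changed the pseudocount, filter, scaling, moderation, test, threshold, a replicate block and the lines included. Promoter sequences and overlaps are from RefSeq (GRCm38.p6) and transcript lengths from GENCODE M1. Plots were drawn with matplotlib 3.10.9.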

Additional observations from a re-analysis of the deposited data

How the results depend on the processing

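The count of the 10 genes past the threshold was 0 under all 19 alternatives, including an adjusted p-value under 0.1 and an unadjusted p-value under 0.05. Their median log2 fold change stayed between 0.46 and 0.83 outside the fits that leave out a line, and ranged from -0.22 (without K1) to 0.90 (without K2) in those. Leaving out each line in turn, the log2 fold change ranged from -0.28 to 1.01 for *Atf4*, -0.15 to 1.13 for *Ddit3*, -0.42 to 2.58 for *Trib3*, -0.080 to 1.72 for *Chac1*, -0.16 to 0.76 for *Xbp1* and -0.0092 to 0.98 for *Ern1*, each negative only without K1. For *Atf3* it ranged from -0.58 to 0.29, positive without T1 or K2, and was 0.058 with K2 and K3 averaged as 1 sample. *Ppp1r15a*, *Psat1* and *Phgdh* kept their sign in all 17 fits. The count of the 10 genes without overlap ranged from 0 to 2 with a line left out. Over all genes the count past the threshold was 15, and became 6 at a pseudocount of 0.1, 5 without a filter, 6 with RPKM of at least 1 in all 6 libraries, 3 with voom, 0 with K2 and K3 averaged, and 0 to 7 with a line left out. The cause of these shifts was not tested. Of the immediate early genes, 1 passed with quantile and 1 with median-of-ratios scaling, in both settings *Btg2*, and 0 in the other 15.

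With a replicate block, 0 genes passed over all genes and 0 of the 10, and *Trp53* had an adjusted p-value of 0.0771 (limma). Deviations from the genotype means correlated at 0.192, 0.399 and 0.0316 for replicate numbers 1, 2 and 3. Replicates 1 and 2 correlated best with their own number and replicate 3 did not, so the pairing was not taken up and is at most a hint from the data. The scaling of the comparison of K1 with the next line was examined after the data were seen, and K1 was highest for 8 of the 10 genes in each of the 3 scalings. Libraries of 3680068 to 6878625 reads left 16 to 150 reads behind the lower values of *Trib3*, *Chac1* and *Ddit3*, and with 3 lines a genotype a 2-fold difference of *Atf4*, *Trib3*, *Chac1* or *Atf3* was within the interval in either direction.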
